A study of Mus musculus with 18 samples.

Results

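The 4 Hox clusters of the mouse genome were described by the positions of open chromatin called in embryonic stem cells. Members were the protein-coding RefSeq genes of GRCm38 whose symbol is Hox, a cluster letter a to d and a paralogue number, which gave 39 of 21774 protein-coding genes. Each cluster was taken from its first to its last gene and with 100 kb on either side. The 4 clusters held 125 and the clusters with flanks 210 of the 166066 peaks in the merged list, counted by peak midpoint. The series comprises 18 ATAC-seq libraries, an assay that marks accessible DNA by transposase insertion, 3 at each of 0, 3, 6, 12, 24 and 48 h, and asks where chromatin opens after loss of histone H3 lysine 9 methyltransferases. All cells were ES cells of 1 line named dTKO with the genotype Suv39h1fl/fl, Suv39h2-/-, Setdb1fl/fl, grown in LIF/FCS medium on gelatin, and all groups therefore lacked Suv39h2. Every group, 0 h included, is labelled as treated with auxin (100 µg/ml) and dTAG13 (0.5 µM), small molecules that trigger degradation of proteins carrying a matching tag. The labels name neither the tagged protein nor whether the floxed alleles were recombined. The list merges peaks over libraries and gives positions only, so changes over time were not analysed here, depth is unknown, and no value has a replicate error. A site open in few cells and a site open in most cells cannot be told apart in such a list.

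Hox genes encode homeodomain transcription factors that give cells their position along the body axis. Within a cluster all genes are transcribed in the same direction, and they are activated in their order along the chromosome, the low-numbered (3′) genes first and in anterior tissue, the high-numbered (5′) genes later and in posterior and distal tissue. In ES cells the clusters are known as domains held silent by Polycomb complexes while their promoters, many of them CpG-rich, also carry the trithorax mark of active promoters.

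The sequences around the annotated starts differed widely in base composition between Hox genes, and 6 are shown because they span the range from high to low GC and from wholly covered by a peak to more than 1 kb from any peak. They come from the RefSeq promoter table of GRCm38.p6, 5′ to 3′ in the direction of the gene, 250 bases before to 50 after the start. Capitals mark matches on either strand, so that a match on the other strand shows as the reverse complement, to 5 motifs. They are the TATA box motif TATAAA, the box of the factor NF-Y written CCAAT, the Sp1 motif GGGCGG, the bipartite Hox and Pbx motif TGATNNAT and the Cdx motif TTTATG. Repeats of the Sp1 motif can overlap each other, and the TATA motif overlaps its own complement in Hoxd13. Hoxd13 (chr2:74667975-74668274, plus strand) and Hoxa13 (chr6:52260831-52261130, minus strand) encode factors of digits and the urogenital tract. Hoxd8 (chr2:74704365-74704664, plus strand) is a central gene of its cluster, and Hoxb1 (chr11:96365508-96365807, plus strand) specifies a segment of the hindbrain. Hoxa6 (chr6:52208623-52208922, minus strand) and Hoxd4 (chr2:74721728-74722027, plus strand) act in the neck and upper trunk.
Hoxd13: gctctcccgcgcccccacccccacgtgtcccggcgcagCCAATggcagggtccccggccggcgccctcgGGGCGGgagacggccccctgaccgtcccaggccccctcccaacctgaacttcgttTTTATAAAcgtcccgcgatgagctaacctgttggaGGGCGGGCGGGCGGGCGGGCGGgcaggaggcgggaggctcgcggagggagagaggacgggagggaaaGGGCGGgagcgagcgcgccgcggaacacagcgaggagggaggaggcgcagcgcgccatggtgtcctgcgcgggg
Hoxa13: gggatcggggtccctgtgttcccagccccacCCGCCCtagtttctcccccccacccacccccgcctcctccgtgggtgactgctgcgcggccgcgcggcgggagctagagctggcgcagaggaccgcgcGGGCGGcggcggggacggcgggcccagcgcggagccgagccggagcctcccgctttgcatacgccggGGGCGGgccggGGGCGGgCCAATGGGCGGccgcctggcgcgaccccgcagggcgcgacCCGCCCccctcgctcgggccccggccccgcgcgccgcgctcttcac
Hoxd8: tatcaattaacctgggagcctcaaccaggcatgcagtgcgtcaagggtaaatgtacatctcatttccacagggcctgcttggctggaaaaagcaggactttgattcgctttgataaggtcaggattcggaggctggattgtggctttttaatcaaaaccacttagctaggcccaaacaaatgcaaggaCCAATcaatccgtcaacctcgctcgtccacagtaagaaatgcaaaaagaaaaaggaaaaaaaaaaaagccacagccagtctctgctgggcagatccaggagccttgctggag
Hoxb1: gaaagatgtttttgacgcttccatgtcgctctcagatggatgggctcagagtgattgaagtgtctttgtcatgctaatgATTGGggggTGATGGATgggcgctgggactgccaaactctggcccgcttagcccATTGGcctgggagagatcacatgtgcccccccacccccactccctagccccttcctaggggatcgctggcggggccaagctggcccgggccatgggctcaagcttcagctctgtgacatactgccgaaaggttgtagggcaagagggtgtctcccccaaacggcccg
Hoxa6: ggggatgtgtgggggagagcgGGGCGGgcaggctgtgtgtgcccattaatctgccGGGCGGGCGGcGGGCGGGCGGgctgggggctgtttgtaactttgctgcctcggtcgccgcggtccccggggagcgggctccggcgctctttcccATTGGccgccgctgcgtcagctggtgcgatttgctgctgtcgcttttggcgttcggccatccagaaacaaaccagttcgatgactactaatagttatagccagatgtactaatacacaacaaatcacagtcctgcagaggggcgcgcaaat
Hoxd4: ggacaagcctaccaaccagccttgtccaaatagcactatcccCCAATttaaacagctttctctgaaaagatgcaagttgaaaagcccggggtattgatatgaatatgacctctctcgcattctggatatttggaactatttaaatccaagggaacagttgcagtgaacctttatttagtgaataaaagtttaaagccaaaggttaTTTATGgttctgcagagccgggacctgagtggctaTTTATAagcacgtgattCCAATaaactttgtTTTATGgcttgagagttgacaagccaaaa

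Peaks covered 100% of the bases shown for Hoxd13 and Hoxd8, 84.7% of those for Hoxb1 and 60.0% of those for Hoxa13, where the uncovered part lies upstream. No base of the Hoxa6 and Hoxd4 sequences lay under a peak, and the nearest peaks were 2220 and 1093 bp from those starts. GC content did not sort these examples by coverage. It was 81.0% in Hoxa13 and 74.3% in Hoxd13, but only 46.7% in Hoxd8, which was wholly covered, and 62.0% in Hoxa6, which was not covered. Hoxd4 had the lowest GC of all Hox entries, 39.7%. Hoxd13 held 7 matches to GGGCGG and Hoxa13 held 6, whereas Hoxa6 held 5 without a peak. The table had 24 entries for 22 of the 39 Hox genes, and their median GC was 57.7%, against 56.3% in the 21263 entries of all protein-coding genes. Most of these Hox entries belong to HoxA and HoxD. HoxB has entries for Hoxb1, Hoxb4 and Hoxb8 only, and HoxC for Hoxc4 only, at a start 16298 bp inside the gene. Among Hox entries the 16 starts inside a peak had a median GC of 59.8% and an observed over expected CpG ratio of 0.67, and the 8 starts outside peaks had 50.3% and 0.62. Over all protein-coding entries the same split was wider, 61.7% and 0.75 inside peaks and 46.0% and 0.17 outside. CCAAT was present in 15 of 24 Hox entries (62.5%) and in 38.2% of all entries, and GGGCGG in 10 (41.7%) and 46.2%. TTTATG occurred in 5 Hox entries (20.8%) and 9.71% of all, TGATNNAT in 4 (16.7%: Hoxa2, Hoxb1, Hoxb8 and Hoxd11) and 7.45%, and TATAAA in 4 (16.7%) and 12.6%. A match describes letters in this window and not a bound site.

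The clusters also hold 6 microRNA genes, whose printed arms have 3 seeds, and their mature sequences are shown with the seed, bases 2 to 8, in capitals. The miR-10 and miR-196 families are known to repress Hox transcripts. They come from the RefSeq table of GRCm38.p6, and 1 arm of each hairpin is printed.
mmu-miR-10a-5p: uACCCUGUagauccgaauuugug
mmu-miR-10b-5p: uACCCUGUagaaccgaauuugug
mmu-miR-196a-5p: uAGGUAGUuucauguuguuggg
mmu-miR-196b-5p: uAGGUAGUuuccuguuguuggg
mmu-miR-615-3p: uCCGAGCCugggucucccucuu

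The seed ACCCUGU is shared by miR-10a-5p (chr11:96317186-96317208, plus strand, within the annotated span of Hoxb3) and miR-10b-5p (chr2:74726074-74726096, plus strand, within Hoxd3 and Hoxd4). The seed AGGUAGU is shared by miR-196b-5p (chr6:52230129-52230150, minus strand, between Hoxa9 and Hoxa10) and by miR-196a-5p, which 2 genes encode, at chr11:96265187-96265208 and chr15:102973365-102973386, both on the plus strand. MiR-615-3p (chr15:103014969-103014990, plus strand) lies within Hoxc5. A peak lay over 2 of the 6 microRNA genes, Mir196b under a peak of 1212 bp and Mir615 under one of 2064 bp that also covers the 5′ end of Hoxc5. Over all 1228 annotated microRNA genes the share with a peak was 20.8%, with 6 genes too few to place the clusters above or below it. Among the other 4 the nearest peak was 486 bp from Mir10b, 633 bp from Mir10a, 693 bp from Mir196a-1 and 2198 bp from Mir196a-2. Members of a seed family thus differed, Mir196b lying in a peak and both Mir196a genes outside.

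All 4 clusters were densely dotted with open chromatin, with a peak on average every few kb from end to end. HoxA (chromosome 6, minus strand, 11 genes) held 28 peaks that covered 26.2% of its 105.5 kb. HoxB (chr11:96194316-96368254, plus strand, 10 genes) held 44 peaks over 19.1% of 173.9 kb. HoxC (chr15:102921131-103036856, plus strand, 9 genes) held 28 peaks over 21.1% of 115.7 kb, and HoxD (chr2:74668225-74765142, plus strand, 9 genes) held 25 peaks over 24.2% of 96.9 kb. Peak density was 26.5, 25.3, 24.2 and 25.8 peaks per 100 kb in the order A to D, and 22.7, 15.5, 17.3 and 16.5 when peaks of up to 578 bp were left out, where HoxA stood above the others. The genome between the first and last peak of each chromosome averaged 6.23 per 100 kb and 4.39% of bases covered.

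Peak width varied more between the clusters than the density of all peaks did. The median width was 932 bp in HoxA, 651 bp in HoxB, 772 bp in HoxC and 839 bp in HoxD, against 578 bp over all peaks. Peaks of at least 1000 bp numbered 11 of 28 in HoxA (39.3%) and 7 of 44 in HoxB (15.9%), against 20.7% of all peaks. HoxC had 7 of 28 (25.0%) and HoxD 8 of 25 (32%). Of the 125 cluster peaks, 2 exceeded 2198 bp, the 99th percentile of all peaks. That is too few to place the clusters above or below the whole series. The widest peak of the series spans 10001 bp, and the widest in a Hox cluster 2283 bp.

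Against the genome cut into tiles of the same length, each cluster lay near the top of the distribution. The median tile of each length had 2.92 to 3.03% of its bases covered. At least the share of HoxA was reached by 1 of 25216 tiles (0.00397%), a tile that holds Gm21119. At least the share of HoxD was reached by 6 of 27453 tiles (0.0219%), 1 of which lies on HoxA. The counts were 21 of 22989 tiles for HoxC (0.0913%) and 27 of 15293 for HoxB (0.177%), with 1 tile on a Hox cluster in each. By number of peaks, 30 tiles held at least as many peaks as HoxA, 16 as HoxB, 110 as HoxC and 75 as HoxD, which is more tiles than by covered share for HoxA, HoxC and HoxD and fewer for HoxB.

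**Figure D1:**
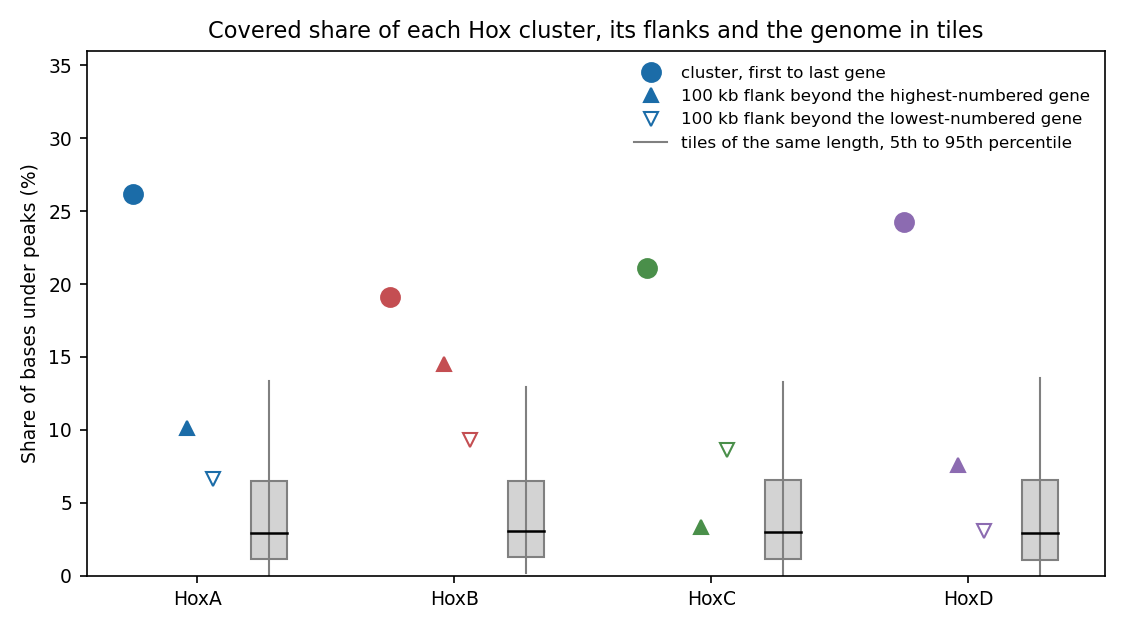
Share of bases under peaks (%) in each Hox cluster (circle), in its 100 kb flanks (triangles) and in genome tiles of the cluster's length (box from the 25th to the 75th percentile with the median, whiskers from the 5th to the 95th percentile). The 4 clusters sit between 19.1 and 26.2% and their flanks between 3.06 and 14.5%.

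Coverage was lower beyond the outermost gene on both sides of every cluster. Pooled, the 4 clusters had 25.4 peaks per 100 kb and 22.1% of 492.1 kb covered, and the 8 flanks had 10.6 peaks per 100 kb and 7.91% of 800 kb covered. The flanks differed among themselves by more than the clusters did. HoxB had the most covered flanks, 14.5% beyond Hoxb13 and 9.32% beyond Hoxb1. HoxA had 10.1% beyond Hoxa13 and 6.66% on its other side, and HoxD 7.62% beyond Hoxd13 and 3.06% beyond Hoxd1. HoxC ran the other way, with 3.32% beyond Hoxc13 and 8.63% beyond Hoxc4, the lowest-numbered gene it has. The median peak width was 736 bp in the clusters and 641 bp in the flanks, while 33 of 125 cluster peaks (26.4%) and 25 of 85 flank peaks (29.4%) were at least 1000 bp wide. Counted by midpoint, the flank peaks include those over the starts of Hoxb13 and Hoxd13, 1156 and 1755 bp wide.

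**Figure D2:**
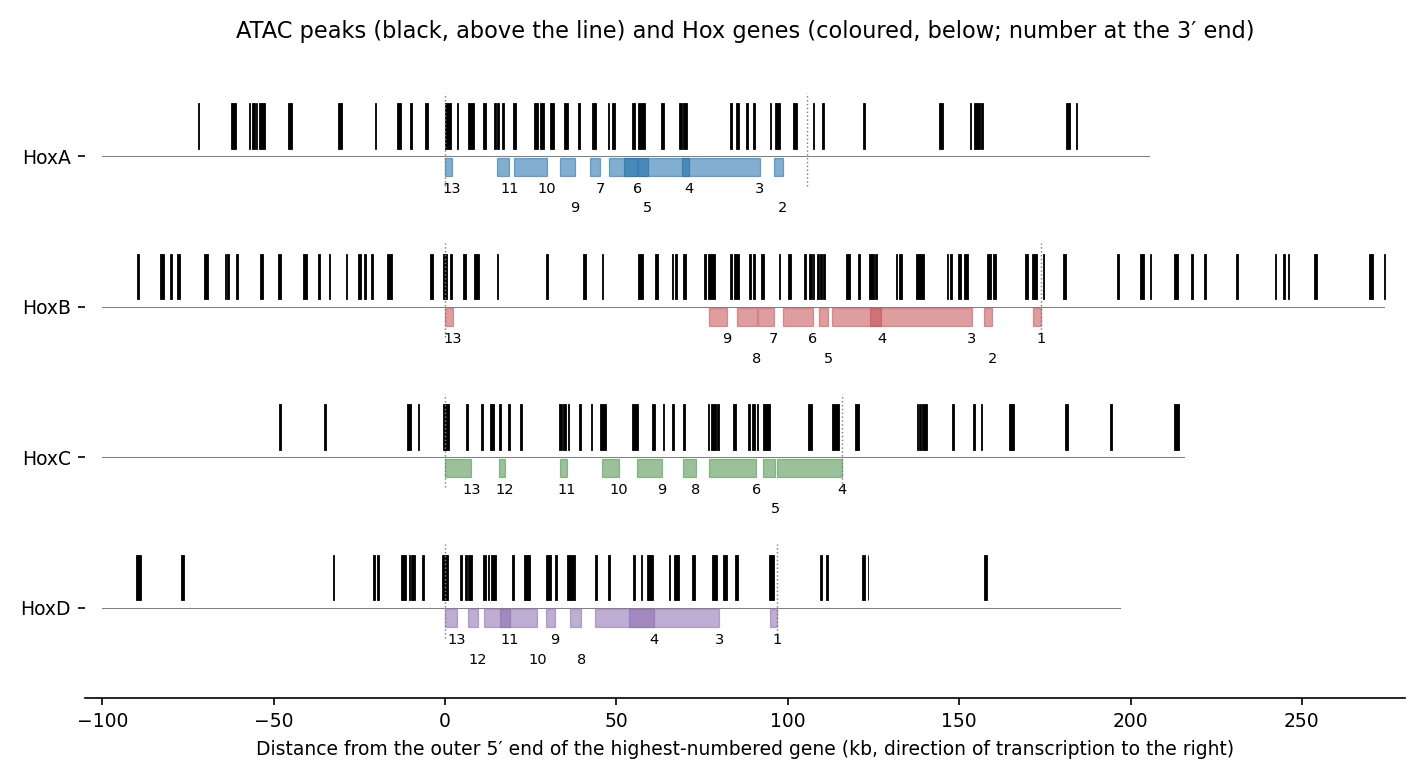
Peaks (black bars above each line, drawn to scale) and 38 of the 39 Hox genes (coloured boxes below, number at the 3′ end) along each cluster and its 100 kb flanks, in kb from the 5′ end of the highest-numbered gene and oriented so that transcription runs to the right. Dotted lines mark the cluster ends, with 25.4 peaks per 100 kb inside the clusters and 10.6 in the flanks.

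Peaks were not spread evenly between genes and the DNA separating them. The merged bodies of Hox genes, 278.4 kb, were 27.3% covered, and the gaps, 213.7 kb, were 15.3% covered. The gap from Hoxb13 to Hoxb9 alone makes up 74.7 kb and had 13 peaks and 12.1% coverage, the longest stretch in any cluster without a protein-coding gene. Without it the remaining gaps were 17.0% covered. The longest run without a peak in each cluster was 14.01 kb in this gap of HoxB, 12.4 kb inside the annotated span of Hoxa3, 11.0 kb from Hoxc5 into Hoxc4 and 9 kb upstream of Hoxd1. A short gap could be well covered, with 39.5% of the 2.80 kb from Hoxb9 to Hoxb8 and 36.9% of the 1.94 kb from Hoxb6 to Hoxb5. The 13.04 kb between Hoxa11 and Hoxa13 held 4 peaks over 27.4% of its bases. One of them, 1950 bp at chr6:52252375-52254324, was the only peak of at least 1000 bp in any cluster that touched no annotated gene.

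By place, the widest peaks lay at gene starts. Of the 125 cluster peaks, 31 (24.8%) lay within 500 bp of the 5′ end of a Hox gene, with a median width of 1170 bp and 18 of at least 1000 bp. This count leaves out the peaks over the starts of Hoxb13 and Hoxd13, 1156 and 1755 bp wide, whose midpoints lie outside the clusters. A further 56 (44.8%) lay elsewhere in a Hox gene, with a median of 752 bp and 12 wide ones. Another 14 (11.2%) touched another gene only, with a median of 692 bp, and 24 (19.2%) lay between genes, with a median of 580 bp, close to the 578 bp of all peaks. The widest of all, 2283 bp at chr2:74703824-74706106, covered the start of Hoxd8. The next, 2256 bp at chr11:96331674-96333929, lay inside the span of Hoxb3 away from its ends, and the third, 2164 bp, covered the start of Hoxa5, a factor of lung and neck vertebrae.

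**Figure D3:**
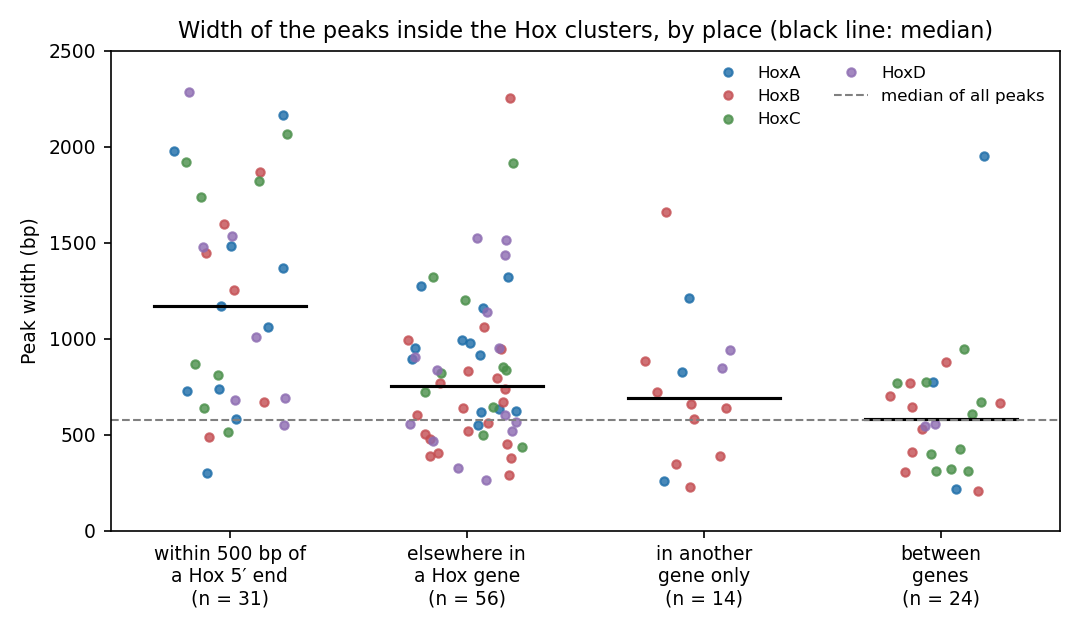
Width in bp of each of the 125 peaks inside the Hox clusters, by place (points coloured by cluster, black line at the median of each place, dashed line at the 578 bp median of all peaks). Peaks at Hox 5′ ends have a median of 1170 bp, those elsewhere in Hox genes 752 bp. The peaks over the starts of Hoxb13 and Hoxd13 have their midpoints outside the clusters and are not drawn.

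Open chromatin at the 5′ end itself was about as frequent for Hox genes as for other genes. A peak lay within 500 bp of the outer annotated 5′ end of 29 of 39 Hox genes (74.4%, 95% Wilson interval 58.9 to 85.4 over genes, counting error only), against 67.1% of all 17509 protein-coding genes with a known strand. A peak lay over the 5′ end itself in 23 Hox genes (59.0%, 43.4 to 72.9) and in 61.3% of other genes. The median width of those peaks was 1479 bp in Hox genes and 1333 bp in other genes. The interval for Hox genes includes the background share in both counts. Neighbouring genes share peaks and are not independent. Apart from Hox genes, the background holds only genes whose strand the RefSeq promoter table gives, which leaves out 4265 genes. Hox genes without an entry there were kept.

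Where a Hox start had a peak, the peak tended to lie farther inside the gene, a difference not tested. Among genes with a peak within 500 bp, the midpoint of the nearest peak lay downstream of the 5′ end in 23 of 29 Hox genes (79.3%), at a median of 362 bp, against 69.6% and 128 bp in other genes. HoxA was shifted furthest, with a median of 846 bp, and HoxB had 426 bp, HoxC 283 bp and HoxD 350 bp. In HoxA only Hoxa5, Hoxa10 and Hoxa13 had a peak over the outer 5′ end. The starts of Hoxa2 and Hoxa4 had their nearest peaks, 1485 and 1367 bp wide, beginning 214 and 151 bp inside the gene. Hoxa11, a factor of forearm and kidney, had one beginning 27 bp inside and Hoxa7 one 468 bp inside, while the nearest peak of Hoxa3, a factor of thymus and parathyroid, ended 43 bp upstream. Hoxa4 and Hoxa11 each also had a further peak within 500 bp upstream of the start, of 725 and 584 bp.

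**Figure D4:**
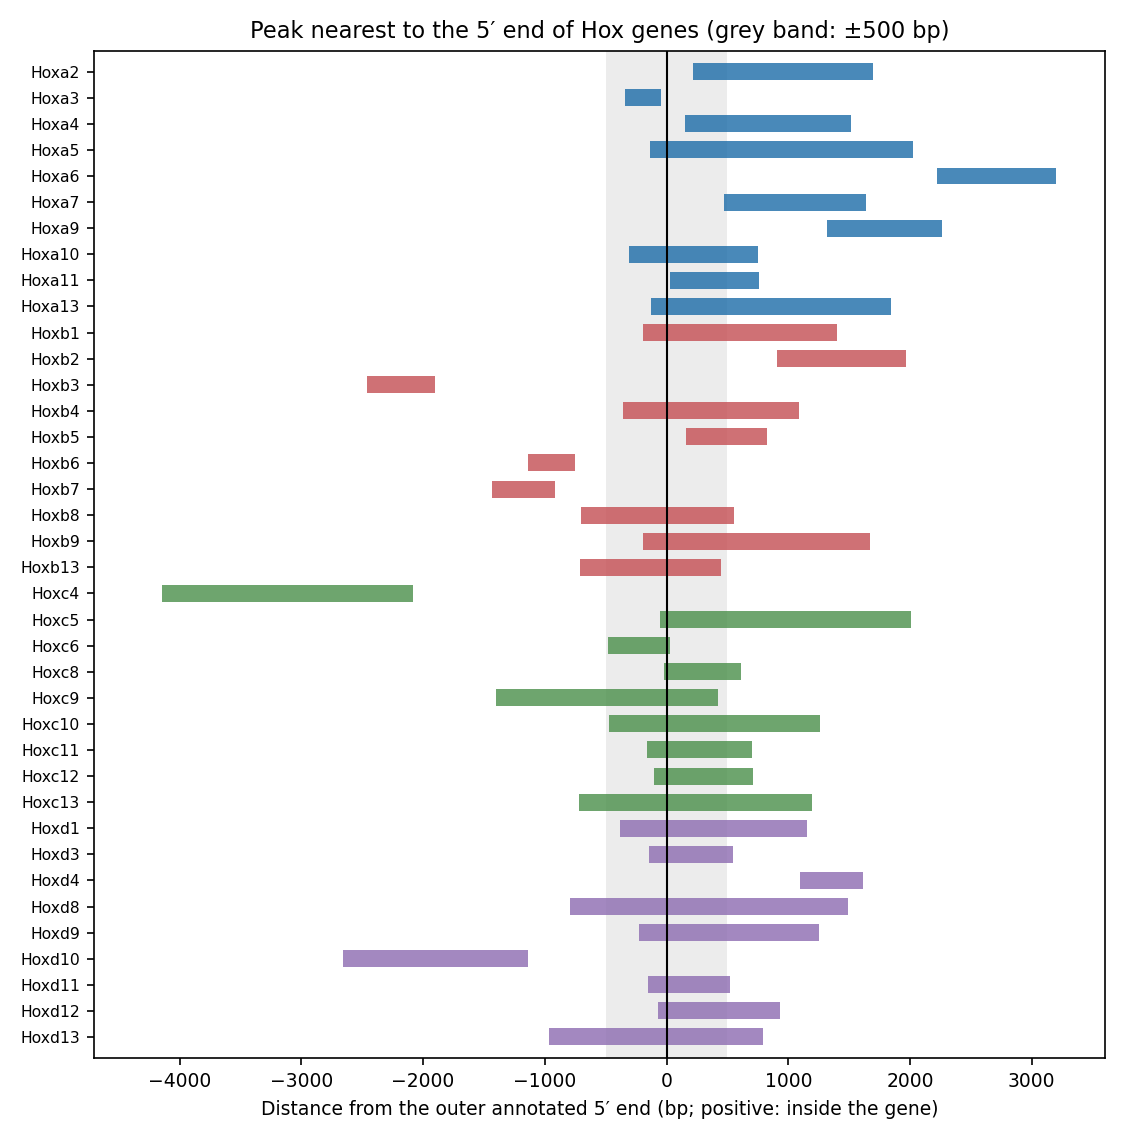
Extent of the peak nearest to the outer 5′ end of 38 of the 39 Hox genes, in bp, with positive values inside the gene and the ±500 bp window in grey (colours as on the map of the clusters). In 23 genes the peak spans the 5′ end, in 6 more it lies within 500 bp, and in 9 it lies farther away.

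By cluster, a peak over the 5′ end was present in 8 of 9 HoxC genes, 7 of 9 HoxD genes, 5 of 10 HoxB genes and 3 of 11 HoxA genes. Within 500 bp the counts were 8, 7, 6 and 8 in the same order, so that HoxA caught up only with the wider window. Arranged by position in the cluster, a peak over the 5′ end was present in 3 of 8 genes of paralogues 1 to 3 (37.5%, 13.7 to 69.4), 7 of 15 of paralogues 4 to 8 (46.7%, 24.8 to 69.9) and 13 of 16 of paralogues 9 to 13 (81.2%, 57.0 to 93.4). Within 500 bp the counts were 5 of 8, 10 of 15 and 14 of 16. The groups draw unevenly on the clusters, and the counts over the 5′ end did not follow 1 order in each cluster. They were 0 of 3, 1 of 4 and 2 of 4 in HoxA, and 1 of 3, 2 of 5 and 2 of 2 in HoxB. HoxC, without paralogues 1 to 3, had 3 of 4 and 5 of 5. HoxD alone did not rise over the groups, with 2 of 2, 1 of 2 and 4 of 5. The intervals treat genes as independent, which neighbours are not, so their overlap does not compare the groups. The difference between the groups was not tested. The background for a peak over the 5′ end was 61.3% of other genes.

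Most posterior genes had a peak over the start. All 4 genes of paralogue group 13 had a peak over the 5′ end, 1979 bp wide at Hoxa13, 1156 bp at Hoxb13, 1921 bp at Hoxc13 and 1755 bp at Hoxd13. Hoxb13 is known for the tail and prostate and Hoxc13 for hair and nails. In group 12, Hoxc12 had a peak of 813 bp and Hoxd12 one of 1009 bp over the start. In group 11, Hoxc11 and Hoxd11 had peaks of 868 and 680 bp over the start, and in group 10, whose genes suppress ribs in the lumbar region, Hoxa10 and Hoxc10 had peaks of 1059 and 1737 bp. In group 9, Hoxb9, Hoxc9 and Hoxd9 had peaks of 1868, 1823 and 1479 bp. The 3 without a peak over the start were Hoxa11, described above, Hoxa9, a gene of blood progenitors, with its nearest peak 1316 bp inside the gene, and Hoxd10, a factor of lumbar motor neurons, with its nearest peak 1141 bp upstream.

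Central and anterior genes were more mixed. Group 8 had a peak over every start, 1255 bp at Hoxb8, 639 bp at Hoxc8 and 2283 bp at Hoxd8. In group 5 the peaks at Hoxa5 and Hoxc5, 2164 and 2064 bp, covered the start. The nearest peak of Hoxb5, 671 bp, began 156 bp inside, and another of 488 bp lay within 500 bp upstream. Of groups 6 and 7 only Hoxc6, with a peak of 512 bp, and Hoxa7 had one within 500 bp. Hoxa6, Hoxb6 and Hoxb7 had none, at 2220, 750 and 918 bp. Group 4 had a peak of 1446 bp over the start of Hoxb4, a gene known from blood stem cells, none within 500 bp at Hoxc4 or Hoxd4, and those near Hoxa4 described above. Among the anterior genes, Hoxb1 and Hoxd1 had peaks of 1596 and 1536 bp over the start and Hoxd3 one of 690 bp. Hoxb2 had its nearest peak, of 1062 bp, beginning 910 bp inside the gene. Hoxb3 had its nearest peak 1903 bp upstream of its outer 5′ end.

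A missing peak at the outer 5′ end was not a missing peak at the gene. All 39 Hox genes had at least 1 peak in the gene body, as did all 62 other homeobox genes and 81.6% of all protein-coding genes. For 2 of the 10 genes without a peak the RefSeq promoter table places a start farther inside, and that start lay under a peak. The Hoxc4 start at 103034395 of chromosome 15, 16298 bp inside the gene, lay in a peak of 1913 bp, and the Hoxd10 start at 74691891 of chromosome 2, 7618 bp inside, in a peak of 1141 bp. Counting these, 31 of 39 Hox genes had a peak at a start, against 72.2% of the background counted in the same way. Hoxb8 showed the reverse, since its outer 5′ end was covered and its table start 2504 bp inside lay 1146 bp from the nearest peak.

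Gene bodies of Hox genes were covered to a greater extent than those of most genes. The median covered share of the gene body was 33.5% in the 39 Hox genes (lowest 16.4% in Hoxc8, highest 91.2% in Hoxa13), 31.2% in 62 other homeobox genes of the developmental list and 7.47% in all protein-coding genes. Hox genes are short, with a median length of 3737 bp, against 17219 bp in all protein-coding genes. Among genes of up to 10 kb the medians were 35.8% in 33 Hox genes and 14.02% in 5484 others no shorter than the shortest Hox gene. Lengths still differed there, with medians of 3379 bp in the Hox genes and 5201 bp in the others. Other single genes ran from 71.6% at Hoxa5, 70.9% at Hoxc11, 67.6% at Hoxa4 and 61.5% at Hoxa2 down to 16.6% at Hoxc4, 16.8% at Hoxc9 and 18.3% at Hoxb7. The long annotated spans of Hoxa3, Hoxb3 and Hoxd3, which run across neighbouring genes, held 10, 12 and 10 peaks.

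To compare positions along the clusters without gaps or overlaps, each gene was given a territory. It is the gene's body and the nearer part of the gap to each neighbouring Hox gene. The outermost genes of a cluster get nothing beyond their outer end, and a peak spanning that end is cut there. Both Hoxb13 and Hoxa13 are such genes, so their values are not like for like with those of inner genes. Where annotated bodies overlap, the body was trimmed at the 3′ end of the next gene upstream. The territories of Hoxa3, Hoxb3, Hoxd3 and Hoxd10 therefore leave out the outer 5′ end. The covered share of territories ran from 9.79% at Hoxb13, which takes up part of the long gap to Hoxb9, to 47.0% at Hoxa13, with a median of 24.0%. With these territories no gradient from anterior to posterior was seen over the pooled clusters. Territories of paralogues 1 to 3 were 20.4% covered (26 peaks in 116.9 kb), those of paralogues 4 to 8 were 24.2% covered (43 peaks in 150.9 kb), and those of paralogues 9 to 13 were 21.6% covered (56 peaks in 224.3 kb), or 24.1% without Hoxb13. The clusters did not share an order. In HoxA coverage was 16.9%, 27.6% and 32.9% over the 3 groups, and in HoxD 21.2%, 23.0% and 28.4%, so that both were highest at the posterior end. In HoxB it was 22.3%, 24.9% and 14.3%, and in HoxC, which lacks paralogues 1 to 3, 22.1% and 20.4%, with the posterior group lowest. The group that ranked highest changed to paralogues 9 to 13 when HoxB was left out (19.1%, 23.9% and 25.9%). With gene bodies and 1 kb either side in place of territories, coverage of the pooled clusters rose over the groups (23.9%, 27.8% and 31.0%).

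By paralogue number, group 5 was covered most, 34.1% of its 3 territories, and group 7 least, 16.4% of 2. The members of a number spread about as widely as the numbers did. Group 13 ran from 9.79% at Hoxb13 to 47.0% at Hoxa13, group 5 from 26.3% at Hoxb5 to 42.8% at Hoxc5, and group 10 from 16.1% at Hoxc10 to 37.5% at Hoxa10. Group 6 was the tightest of the groups with 3 members, from 24.0% at Hoxb6 to 27.9% at Hoxc6.

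**Figure D5:**
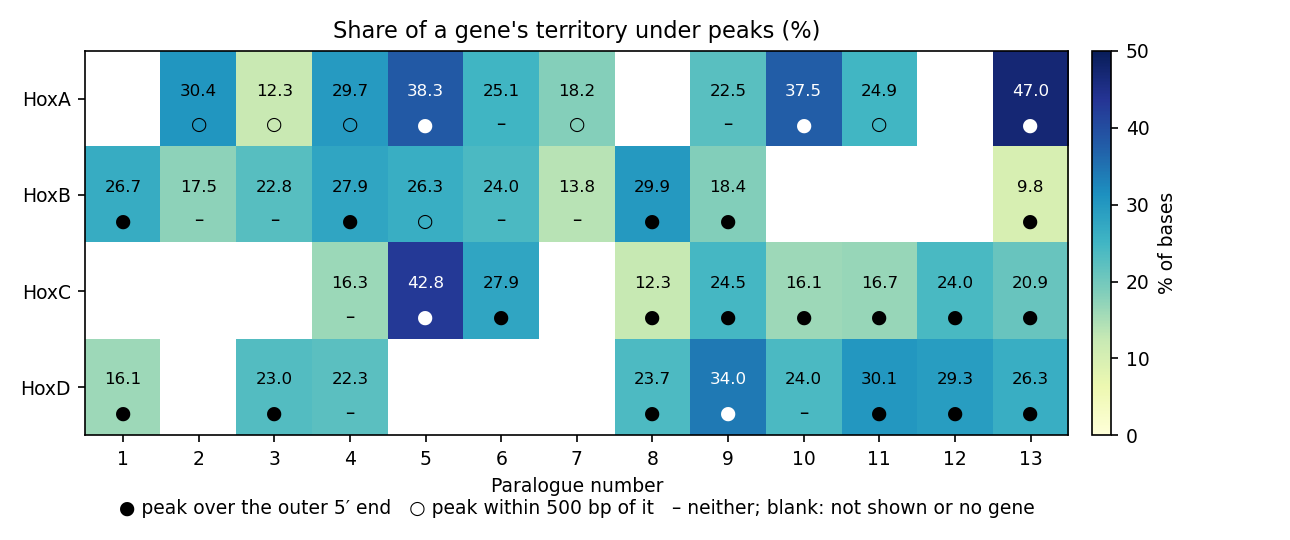
Share of a Hox gene's territory under peaks (%) for 38 of the 39 genes, by cluster (down the page) and paralogue number (across), with symbols for a peak over the outer 5′ end, a peak within 500 bp of it, or neither. Values run from 9.79% at Hoxb13 to 47.0% at Hoxa13, and the 4 genes of group 13 all carry the symbol for a peak over the 5′ end. For Hoxa3, Hoxb3, Hoxd3 and Hoxd10 the symbol refers to an outer 5′ end outside the territory.

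Noncoding genes of the clusters were mostly marked by peaks. Of the 25 long noncoding RNA genes overlapping a cluster, 23 had a peak within 500 bp of an end, against 45.3% of the 12637 such genes in the annotation, in regions where peaks are dense. Hoxaas3 lay over the peak of 2164 bp at Hoxa5, Gm38462 over the peak of 2283 bp at Hoxd8, and Hoxa11os, antisense to Hoxa11, held 3 peaks. Hotair, which lies between Hoxc12 and Hoxc11, had no peak in its body and its nearest, of 774 bp, 393 bp away. Mira, Gm51876 and Gm36878 also had none in the body. Haglr, beside Hoxd1, held 3 peaks. The peak list does not assign a peak to 1 of 2 overlapping genes.

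The protein-coding genes nearest to the clusters were open at an end. Skap2, Calcoco1 and Smug1 lie 143, 199 and 116 kb from their clusters, beyond the 100 kb flanks whose coverage was measured. All 8 genes next to the clusters had a peak within 500 bp of an end, against 71.4% of all protein-coding genes. The homeobox gene Evx1, 52.6 kb beyond Hoxa13, had a peak of 1907 bp over an end. Its paralogue Evx2, 6.70 kb beyond Hoxd13, had one of 469 bp at 82 bp. The others were Skap2 and Skap1, adaptor proteins of immune cells, with 1122 and 1097 bp, Ttll6, a tubulin-modifying enzyme, with 1068 bp, Calcoco1 with 829 bp, the DNA glycosylase gene Smug1 with 827 bp, and Mtx2 of the mitochondrial outer membrane with 1064 bp.

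Genes that act with or on Hox proteins were compared by peaks within 500 bp of either annotated end, since strand was not known for all of them. Hox genes had such a peak in 33 of 39 cases, against 71.4% of all protein-coding genes. Of the cofactors, TALE homeodomain proteins that bind DNA together with Hox proteins, 8 of 9 had one. Pbx3 and Pknox1 had peaks of 2720 and 2336 bp over an end and Meis1 one of 2538 bp, while the nearest peak of Meis3 was 727 bp away. Of the genes of the Cdx and retinoic acid pathways, which turn Hox genes on in the embryo, 11 of 13 had one. The Cdx genes Cdx1, Cdx2 and Cdx4 had peaks of 2100, 1559 and 1550 bp over an end. The retinoic acid receptor gene Rarg had 2583 bp and the retinoic acid synthesis gene Aldh1a2 1700 bp. The receptor gene Rarb and Cyp26b1, which encodes a retinoic acid degrading enzyme, had their nearest peaks 1150 and 2348 bp from an end. Of the trithorax and architectural genes, 7 of 8 had one, among them Kmt2a, the methyltransferase that maintains Hox expression, with 2882 bp and Ctcf, which sets boundaries within the clusters, with 2506 bp. The nearest peak of the cohesin gene Rad21 was 956 bp away.

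Other developmental homeobox genes had peaks at their ends in a larger share than Hox genes. Of 62, 60 had a peak within 500 bp of an end, with Meox1 and Isl2 the exceptions at 2217 and 713 bp. Of the 43 with a known strand, 40 had a peak within 500 bp of the 5′ end, against 29 of 39 Hox genes. The 39 include Hox genes without a promoter entry, whereas other homeobox genes without one were left out. No test was made of this difference because both lists were chosen with results known. The median width of peaks over the 5′ end was 1479 bp in Hox genes and 1502 bp in the other homeobox genes. The median covered share of gene bodies, 33.5% and 31.2%, was also close, at unlike median gene lengths of 3737 and 6870 bp.

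Markers were used only to check the cell type. All 12 embryonic stem cell markers had a peak at an end, against 71.4% of all protein-coding genes, among them Pou5f1 (2567 bp), Nanog (1095 bp) and Sox2 (2470 bp). Fibroblast markers had one in 5 of 8 cases, with Col3a1, Postn and Lum lacking it, primitive endoderm markers in 3 of 5, trophoblast markers in 6 of 6 and neural markers in 4 of 4. Since the embryonic stem cell, trophoblast and neural lists all scored in full, these markers do not tell those cell types apart. Open ends do not measure expression, and the part of other cells in the peaks of the Hox clusters was not tested.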

How the data were processed

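The 18 libraries were grouped by the time in the labels. Per the submitters' processing notes, the authors used Trimmomatic 0.36, Bowtie2 2.4.2 and MACS2 2.2.7.1 with mm10 and GRCm38. Their roles, the merging of peaks and the peak threshold are not given in the sources used here. The deposited table holds chromosome, start and end of each merged peak, read as positions in bp and written here 1-based, and the number of unused columns with a sample's values is 0. Of 166066 peaks, 165744 on assembled chromosomes were used. The deposited file has no count, height or score, so no test was run and values are descriptions beside the same value over all genes or the genome. Depth per library is unknown.

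Gene positions came from a RefSeq table of GRCm38.p6, the build of the peaks, without 348 genes whose coordinates are those of scaffolds or patches. Exons and introns were not told apart. Strand came from the RefSeq promoter table, and for the 17 Hox genes without an entry from their cluster, whose entries all share 1 strand. The 5′ end is the outer end of the annotated span. Peaks belong to a region by midpoint, and covered shares count bases. Territories split each gap between genes at its middle. Since annotated bodies overlap, each was trimmed at the 3′ end of the next gene upstream, a departure from the plan. Tiles are adjoining windows of a cluster's length between the first and last peak of each chromosome. The tools were matplotlib 3.10.9, scipy 1.17.1, pandas 2.3.3 and numpy 2.4.6 under Python 3.11.15, and overlap counting was tested on simulated data. Named genes are all Hox genes, other genes in the spans, neighbours and members of the lists. The members and lists were chosen with earlier results of these data known. The values of 2 single genes are not reported here, though the counts include them.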

Additional observations from a re-analysis of the deposited data

How the results depend on the processing

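No paired analysis was possible because the peak list has no column per library. Of 70 recomputed values over 16 results, 66 stayed within 1.5 times. Some could hardly leave this band. The count of genes with a peak at the 5′ end could not exceed it even if all Hox genes had one. The paralogue groups differ from each other by less than the band, so their order can change within it. With only peaks wider than the median, density was 15.5 per 100 kb in HoxB (25.3 with all peaks) and 16.5 in HoxD (25.8). With flanks of 200 kb, mean flank coverage was 9.32% at HoxC (5.98% with 100 kb) and 3.47% at HoxD (5.34%). Hox genes with a peak at the 5′ end numbered 28 with 250 bp, 37 with 2000 bp (all but Hoxa6 and Hoxc4), 28 with an overlap of at least 200 bp and 27 with wide peaks, against 65.2%, 74.2%, 65.7% and 63.2% of the background. The order of the paralogue groups was not stable. Paralogues 9 to 13 ranked highest with HoxB left out or with gene bodies and 1 kb either side (23.9%, 27.8% and 31.0% for the anterior, central and posterior group), and lowest with wide peaks (18.8%, 20.0% and 18.2%) or without HoxA (21.8%, 23.3% and 19.1%). The start from any RefSeq entry, territories up to the next gene upstream and leaving out the Hoxb13 territory were chosen after seeing the data. The cause was not tested. Peak heights, which this list does not hold, limit every statement to presence and extent.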
